A study of Mus musculus with 18 samples.

Results

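The expression of the genes that lie around *Sh3gl1* on mouse chromosome 17 was compared between B cells of *Sh3gl1*-/- mice and of their WT littermates. The members were the genes other than *Sh3gl1* whose body overlapped the stretch from 5 Mb below to 5 Mb above the *Sh3gl1* body (GRCm38, chr17:51016750-61036635) and that had at least 10 expected counts in at least 3 of the 18 libraries. The stretch held 135 genes of the 51912 in the deposited table, of which 73 were members, 38 had 0 counts in every library and 24 had counts but stayed under the count filter. Of the members, 61 were protein coding, 9 carried the annotation TEC (transcripts that still await experimental proof), 2 were lincRNAs and 1 was an antisense RNA. Members were chosen by their position and by their expected counts over all 18 libraries, and the stretch itself was picked with earlier results of these libraries known, so the p-values given are those of fits over all genes. A member that passed the filter only through the group in which it was high had to differ between groups, and *Stap2* was such a case, with 10 or more counts in only 10 of the 18 libraries. *Cd70* passed through 5 CD40L libraries alone, so its difference between follicular and CD40L cells was set by the filter. *Adgre4* passed through the 12 transitional and follicular libraries alone, so the same holds for its lower level after CD40L.

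*Sh3gl1* encodes endophilin A2, a membrane-bending protein of fast endocytosis. A gene next to a targeted allele is inherited with it and mice bred for a knockout allele also share the chromosome segment around it. Neighbouring genes can also share promoters, ends and enhancers. In these groups every *Sh3gl1*-/- library carried the allele and its segment together, and the loss of endophilin A2 and any effect of the linked segment cannot be told apart by this design.

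There were 6 groups of 3 libraries, all labelled C57BL/6: transitional B cells of WT and *Sh3gl1*-/- mice, follicular B cells of both genotypes taken directly after sorting, and follicular cells of both genotypes after culture with CD40L, the T cell ligand that activates B cells, for 14 h by the labels. The knockout was constitutive, and the strain of the embryonic stem cells behind the allele is not given in the sources used here. The study names 3 mice per genotype for the sequencing, so libraries of different states may come from the same mice. The labels do not say which libraries share a mouse, and the tests across states treated all libraries as independent. Totals were 12404665 to 18366011 expected counts per library. The 5 B cell markers were detected in all groups and none of them passed the test between genotypes. Their summed level, in read counts scaled to a common library size (CPM), was still lower in knockout cells. It was 11271 to 11667 in WT against 9961 to 10484 in knockout libraries of follicular cells. After CD40L it was 8753 to 9267 against 7957 to 8285. In transitional cells it was 14810 to 17403 against 11566 to 15094, with overlap. *Rag1*, of the transitional list, had 0 counts in follicular and CD40L cells. These are sorted populations measured in bulk, so fewer cells of a type and less RNA per cell cannot be told apart.

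The member that rose most, *Stap2*, and the member that fell most, *Mpnd*, lie side by side just below *Sh3gl1*, and the sequences at their starts are shown for this reason. *Stap2* (chr17:55997077-56005584, minus strand) encodes a signal-transducing adaptor protein, and *Mpnd* (chr17:56005711-56016790, plus strand) encodes a protein with an MPN protease-like domain. In GENCODE their bodies begin 127 bp apart and point away from each other, and the end of *Mpnd* overlaps the end of *Sh3gl1* (chr17:56016750-56036635, minus strand) by 41 bp. RefSeq places the *Mpnd* start at 56009201, 3595 bp from the *Stap2* start at 56005606, and lists a further *Stap2* start at 56008136. RefSeq promoter windows of 300 bp (GRCm38.p6) were matched for 52 of the 73 members. Letters in capitals mark GGGCGG or CCAAT on either strand. The first sequence is the stretch between the *Stap2* start and the outermost *Mpnd* start (chr17:56005607-56005710, minus strand), and the second is the 250 bases before the RefSeq *Mpnd* start (chr17:56008951-56009200, plus strand).
Stap2: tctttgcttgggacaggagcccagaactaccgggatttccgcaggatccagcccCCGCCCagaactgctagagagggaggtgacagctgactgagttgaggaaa
Mpnd: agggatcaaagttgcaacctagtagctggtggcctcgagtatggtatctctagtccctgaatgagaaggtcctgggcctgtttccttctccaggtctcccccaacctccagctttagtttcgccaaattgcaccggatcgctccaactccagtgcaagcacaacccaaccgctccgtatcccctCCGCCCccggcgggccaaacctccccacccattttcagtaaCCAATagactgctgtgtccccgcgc
The *Stap2* stretch held GGGCGG and the *Mpnd* stretch held GGGCGG and CCAAT, while TATAAA and CACGTG were found in neither. Of 32851 windows of 300 bp over all genes, 35.7% held GGGCGG, 37.4% held CCAAT, 13.6% held TATAAA and 7.15% held CACGTG, on either strand. The full 300 bp window held 5 CpG for *Stap2* and 16 for *Mpnd*, and the medians were 7 over all windows and 16 over the 69 windows of members.

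*Sh3gl1* itself was checked first. Its level in CPM (read counts scaled to a common library size) was 40.4, 34.8 and 29.8 in transitional WT libraries against 0.41, 0.255 and 0.791 in *Sh3gl1*-/- libraries. In follicular cells it was 34.2, 35.2 and 33.7 against 0.15, 0.191 and 0.0716, and after CD40L it was 57.8, 53.6 and 56.8 against 1.41, 1.76 and 0.688. The knockout and WT libraries did not overlap in any state, so the genotype labels matched the target gene.

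The number of neighbours called between genotypes was largest in transitional cells, as was the number of all genes called. There 66 members could be tested and 15 passed an adjusted p of 0.05 in edgeR's quasi-likelihood test (22.7%), against 3.72% of all genes tested. Of these 8 rose and 7 fell, against a background of 1.26% and 2.47% of all genes. In follicular cells 4 of 65 members passed (6.15%, with 0.838% of all genes), 2 higher (0.485% of all genes) and 2 lower (0.353%). After CD40L 1 of 63 passed (1.59%, with 0.0152% of all genes), and it was lower (0.0152%). The 20 calls belonged to 15 genes, since *Stap2*, *Mpnd*, *E430014B02Rik* and *C230085N15Rik* passed in more than 1 state. *Stap2*, kept by the count filter through its knockout libraries, is among the transitional and follicular calls. The plot of effect by distance shows *Stap2* and *Mpnd* at the *Sh3gl1* position and a group of members about 4.2 Mb below it.

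**Figure D1:**
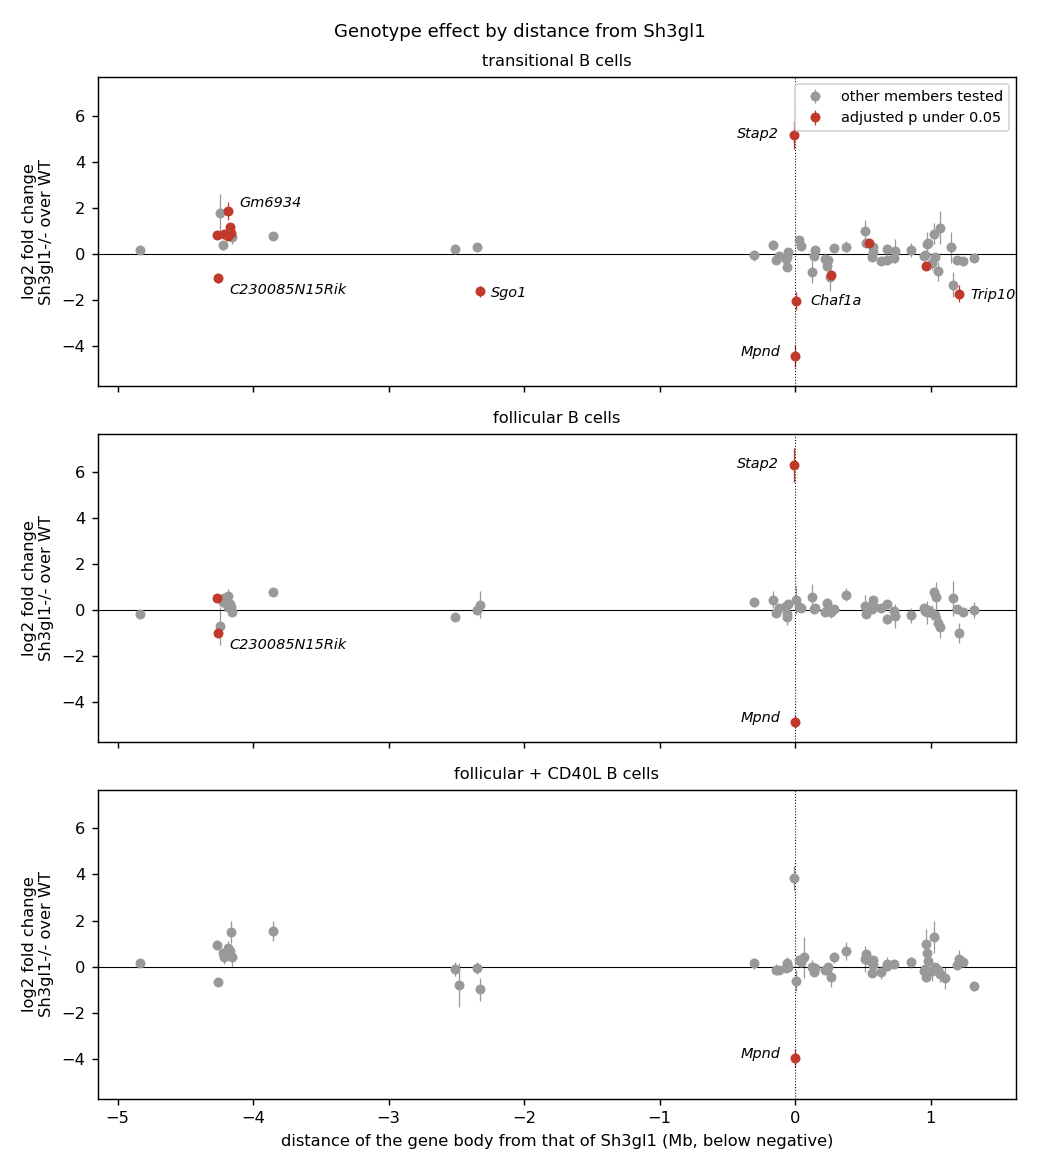
Log2 fold change of *Sh3gl1*-/- over WT cells for each member tested (y axis, with its standard error) against the distance of its body from that of *Sh3gl1* in Mb (x axis), in 3 panels for the 3 cell states. Red points passed an adjusted p of 0.05. The members at 0 that reach 5.16 and -4.45 in transitional cells are *Stap2* and *Mpnd*.

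*Stap2* was close to absent in WT cells and present in knockout cells. In transitional cells it had 2, 5 and 0 counts in WT libraries and 98, 131 and 72 in *Sh3gl1*-/- libraries. In follicular cells the counts were 2, 0 and 0 against 42, 66 and 74. After CD40L they were 8, 2 and 21 against 150, 108 and 150. Every knockout library was above every WT library in each state. The fitted log2 fold change was 5.16 ± 0.61 (SE) in transitional cells (edgeR adjusted p = 0.0083) and 6.32 ± 0.74 in follicular cells (0.0033), where a group so close to 0 makes the fitted value depend on the prior count. As summed counts the ratio was 37.5 (18 to 94.1, exact 95% interval for counting error only) in transitional cells and 95.1 (26 to 791) in follicular cells. After CD40L it was 14.1 (9.8 to 21.1), and the fitted change of 3.85 ± 0.52 had an adjusted p of 0.073. WT cells themselves had more *Stap2* after CD40L than before it (edgeR adjusted p = 0.0055), with the counts given above. No fold is given, since the follicular WT libraries had at most 2 counts. The CD40L WT library of replicate 2 had 2 counts as well, so the difference rests on replicates 1 and 3. The knockout calls of *Stap2* in transitional and follicular cells remained under each of the 6 left-out libraries and all other alternatives run. The count filter kept *Stap2* through its knockout libraries, so neither the calls nor their stability is independent support for a difference.

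*Mpnd* went the other way by a similar amount. In transitional WT libraries it was at 14.5, 8.57 and 10.2 CPM against 0.117, 0.702 and 0.719 in *Sh3gl1*-/- libraries, and in follicular cells at 12.8, 16.8 and 13.1 against 0.451, 0.574 and 0.43. After CD40L it was at 17.6, 9.5 and 14.3 against 0.918, 1.28 and 0.438. No WT library came near a knockout library. The log2 fold changes were -4.45 ± 0.48 (edgeR adjusted p = 0.0056), -4.84 ± 0.29 (2.3e-05) and -3.97 ± 0.41 (0.018). The end shared with *Sh3gl1* is 41 bp long, and the strand setting of the counting is not given in the sources used here. In CD40L cells the call was lost without the CD40L *Sh3gl1*-/- library of replicate 1 (adjusted p = 0.348) and of replicate 3 (0.0855), with log2 fold changes of -3.62 to -4.33 under all 6 left-out libraries. The ex vivo calls of *Mpnd* held under each left-out library.

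**Figure D2:**
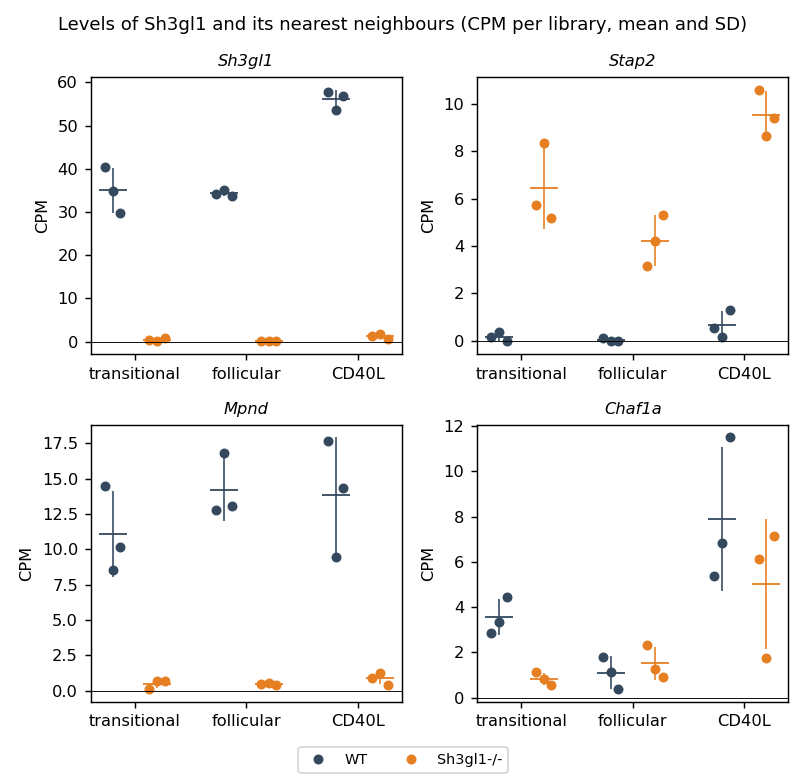
CPM of *Sh3gl1*, *Stap2*, *Mpnd* and *Chaf1a* (y axis) in each of the 18 libraries, by cell state (x axis) and genotype (colour), with bars for the mean and SD of 3 libraries. *Stap2* is at 1.28 CPM or less in all WT libraries and at 3.16 or more in knockout libraries, and *Mpnd* is at 8.57 or more in WT libraries and 1.28 or less in knockout libraries.

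Of the other members nearest to *Sh3gl1*, only *Chaf1a* passed in any state. It encodes a subunit of the chromatin assembly factor of DNA replication, starts 3804 bp from the start of *Sh3gl1* and is described with the cell-division genes. On the upper side, *Ubxn6*, *Hdgfl2*, *Tnfaip8l1* and *Mydgf* had log2 fold changes from -0.79 to 0.61 in the 3 states and none passed. *Plin4* was tested only after CD40L (0.40, not called). On the lower side, *Yju2*, the antisense *Gm16712*, *Ebi3* (a subunit of interleukins 27 and 35), *Zfp119b* and *Zfp959* had values from -0.58 to 0.27 and none passed. *Ebi3* was at 15.8, 19.2 and 15.6 CPM in transitional WT libraries against 10.9, 11.1 and 11.7 in knockout libraries, without overlap, and its adjusted p was 0.068.

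A second group of changes lay far from *Sh3gl1*, 4.15 to 4.27 Mb below it, at *Satb1* and the unproven transcripts in and beside it. *Satb1* encodes a chromatin organizer of lymphocytes. Of the 10 members there, a stretch delimited after the values were seen, 7 passed in transitional cells, against 3.72% of all genes. Of these 6 were higher (1.26% of all genes) and 1 was lower (2.47%). *Satb1* was at 46.7, 39.7 and 44.3 CPM in transitional WT libraries against 72.7, 65.3 and 87.4 in *Sh3gl1*-/- libraries, a log2 fold change of 0.79 ± 0.13 (edgeR adjusted p = 0.018). In follicular cells it was at 92.4, 76.1 and 81.4 against 86.4, 91.9 and 98.2, with overlap and a change of 0.15. After CD40L it was at 17.9, 11.9 and 11.4 against 19.6, 34.4 and 17.6, also with overlap.

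*Gm37593*, just beyond the *Satb1* start, was at 11.4, 12.7 and 12.8 CPM in transitional WT libraries and 28.1, 26 and 29 in knockout libraries. Its change of 1.17 ± 0.13 (edgeR adjusted p = 0.0056) held under each left-out library. *E430014B02Rik*, inside the *Satb1* body, passed in 2 states, with 0.81 ± 0.11 in transitional cells (0.0093) and 0.53 ± 0.10 in follicular cells (0.047), and had 0.94 after CD40L (0.329). Its transitional call was lost under 2 and its follicular call under 5 of the 6 left-out libraries. *Gm37248* (0.84), *Gm37266* (0.90) and the low *Gm6934* (1.86) also rose in transitional cells, with adjusted p of 0.0093, 0.029 and 0.036. *Gm6934* had 14, 9 and 11 counts in transitional WT libraries against 49, 59 and 35 in knockout libraries, and lost its call under all 6 left-out libraries (adjusted p from 0.072 to 0.124).

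*C230085N15Rik*, also inside *Satb1*, fell while the transcripts around it rose. It was at 177, 82.8 and 118 CPM in transitional WT libraries against 60.5, 62.8 and 57.2 in *Sh3gl1*-/- libraries. In follicular cells it was at 173, 122 and 211 against 73.3, 92.2 and 91.6, and after CD40L at 40.7, 32.2 and 32.4 against 22.6, 24.7 and 18.3. The groups did not overlap in any of the 3 states. The log2 fold changes were -1.07 ± 0.23 (edgeR adjusted p = 0.037), -0.97 ± 0.17 (0.028) and -0.66 ± 0.18 (0.493). The transitional and follicular calls were each lost under 5 of the 6 left-out libraries (edgeR adjusted p up to 0.158 and 0.145). *E430014B02Rik*, *C230085N15Rik*, *Gm37248*, *5830444F18Rik* and *Gm36931* lie in the *Satb1* body on its strand, so the counting could have split reads between them and *Satb1*, and each value is uncertain to that degree. *Gm6934* overlaps *Satb1* on the opposite strand. *Gm19585*, a lincRNA 3.85 Mb below *Sh3gl1*, was above WT in every knockout library in all states and passed in none, with changes of 0.76 (adjusted p = 0.054), 0.78 (0.073) and 1.56 (0.493).

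**Figure D3:**
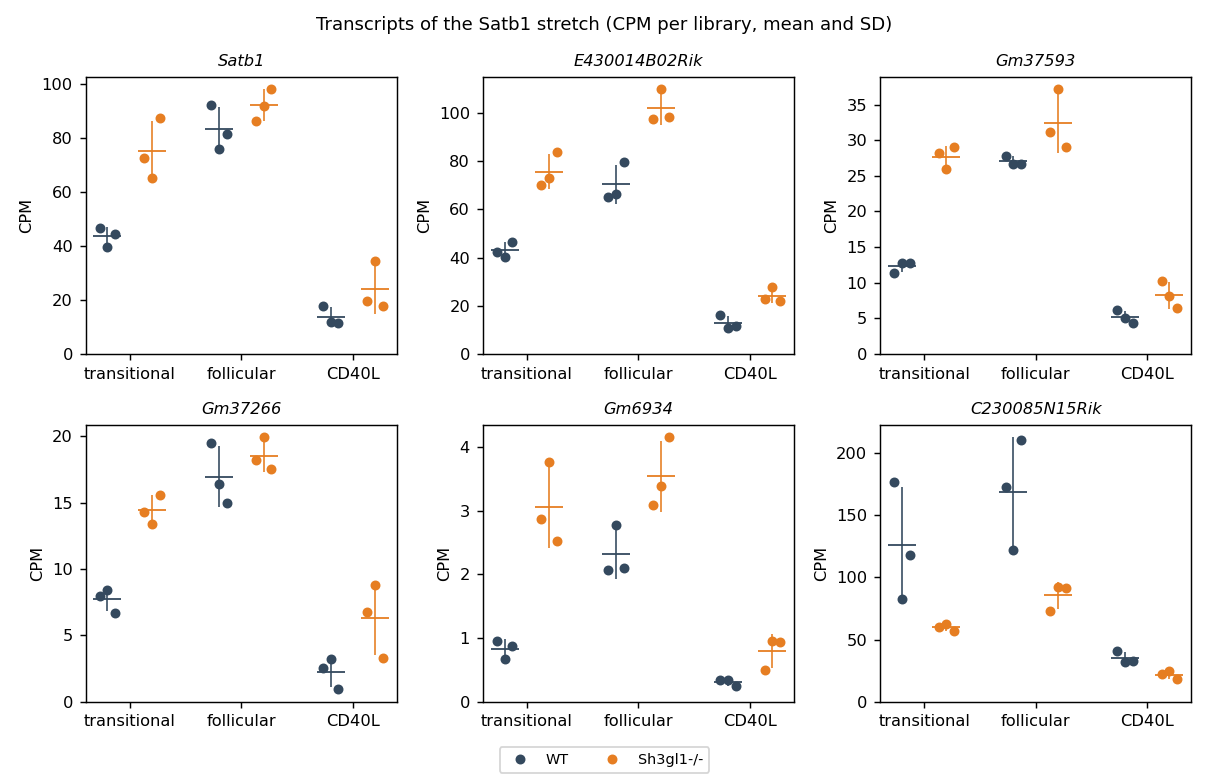
CPM of *Satb1* and 5 transcripts in or beside it (y axis) in each library, by cell state (x axis) and genotype (colour), with bars for the mean and SD of 3 libraries. Knockout libraries lie above WT libraries in transitional cells for 5 of the 6 panels, and *C230085N15Rik* lies below WT in all 3 states.

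Members with a role in chromatin and DNA replication changed in both directions in transitional cells. Of the 10 members of this list, 2 rose there (*Satb1* and *Safb*), with 1.26% of all genes higher, and 3 fell (*Sgo1*, *Chaf1a* and *Uhrf1*), with 2.47% lower. None passed in follicular or CD40L cells, where 0.838% and 0.0152% of all genes did, so a list of 10 would hold few calls or none at the background share. *Sgo1*, a protector of centromere cohesion 2.33 Mb below *Sh3gl1*, was at 9.08, 9.62 and 9.25 CPM in transitional WT libraries against 2.34, 3.25 and 3.38 in knockout libraries. Its change was -1.64 ± 0.24 (edgeR adjusted p = 0.013). *Chaf1a* was at 2.87, 3.35 and 4.43 against 1.11, 0.829 and 0.575, a change of -2.05 ± 0.41 (0.033), and its call was lost under all 6 left-out libraries (adjusted p from 0.056 to 0.130). *Uhrf1*, which maintains DNA methylation at replication, was at 16.6, 25.9 and 20.9 against 9.61, 12.2 and 11.9, a change of -0.91 ± 0.19 (0.036). The calls of *Sgo1* and *Uhrf1* were lost under 3 and 5 of the 6 left-out libraries.

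The genotypes did not overlap in *Sgo1*, *Chaf1a* and *Uhrf1* in transitional cells, and they overlapped in follicular and CD40L cells. In the same transitional libraries all 6 of 6 genes of a cell-division list chosen after the data were seen (*Mki67*, *Top2a*, *Cdk1*, *Ccnb1*, *Aurkb* and *Plk1*) were called lower in knockout cells. None of the 6 was called in the other states, and after CD40L all 6 had a log2 fold change below 0, from -0.40 to -0.89. Their summed level was 189 to 301 CPM in transitional WT libraries and 90.4 to 115 in knockout libraries. In follicular cells it was 41.7 to 50.3 against 47.1 to 57.8, and after CD40L 136 to 405 against 83.8 to 190, with overlap. Its part in the changes of *Sgo1*, *Chaf1a* and *Uhrf1* was not tested. Other cell-type markers moved with genotype in transitional cells too: the plasma cell list was at 409 to 651 CPM in WT and 1066 to 4521 in knockout libraries, with *Jchain* called of its 3 genes, and the erythroid list at 2280 to 3975 against 4438 to 9510, with 5 of 5 called. The neutrophil list was at 47.2 to 90.2 against 105 to 525 CPM, with 1 of 6 tested called. The marginal zone list was at 288 to 308 CPM in WT and 176 to 204 in knockout libraries, with *Cd1d1* called lower of its 3 genes (log2 fold change -0.69, edgeR adjusted p = 0.013). In follicular cells the T cell list was at 59.9 to 88.2 against 124 to 167 CPM, with 2 of 6 called. It was also higher in transitional knockout libraries, at 41.1 to 65.1 against 70.1 to 107 CPM, with 0 of 6 called. After CD40L it was at 10.4 to 12.5 against 16.3 to 21 CPM, with 0 of 4 tested called. In follicular cells the plasma cell list was at 46.3 to 105 against 116 to 147 CPM. The neutrophil list was at 57.4 to 162.3 against 162.4 to 747, and the marginal zone list at 164 to 207 against 134 to 146. After CD40L they were at 9.1 to 38.4 against 47.5 to 177 and at 104 to 105 against 67.3 to 90.4 CPM. No gene of these lists was called in these states. The plasma cell list after CD40L and the erythroid list in both states overlapped. The part of the markers in any member's change was not tested.

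Of the other functional groups few members passed. *Safb*, a nuclear matrix and RNA-binding protein, was at 28.6, 29.7 and 29.7 CPM in transitional WT libraries against 40.1, 39.6 and 40.8 in knockout libraries, a log2 fold change of 0.45 ± 0.10 (edgeR adjusted p = 0.036), and its call was lost under all 6 left-out libraries (adjusted p from 0.066 to 0.142). *Gtf2f1*, a subunit of the general factor TFIIF, was at 93.9, 81.3 and 72 against 55.1, 60.5 and 53.1, a change of -0.55 ± 0.12 (0.036), and was the only 1 of 7 members for transcription, RNA and translation that passed in any state. *Trip10*, which encodes the membrane-bending F-BAR protein CIP4, was at 5.6, 4.7 and 2.84 against 1.35, 1.34 and 1.22, a change of -1.74 ± 0.36 (0.036), and had 0.32 after CD40L. In follicular cells *Trip10* was at 2.46, 2.66 and 6.02 CPM against 2.41, 1.85 and 1.29, without a call. The groups did not overlap there, as in 15.5% of all genes. The calls of *Gtf2f1* and *Trip10* were lost under 4 and 5 of the 6 left-out libraries. None of the 5 members for endosomes and membrane traffic, the 5 mitochondrial members, the 3 TNF ligands, the 2 lipid members or the 3 zinc finger members passed in any state in which it was tested. In lists of this size a count of 0 is also what the shares of all genes called, 3.72%, 0.838% and 0.0152%, would give. *Rpl36*, the member with the highest level per length at a mean of 1700 TPM (a level scaled to transcript length and library), had a follicular change of 0.44 (adjusted p = 0.080).

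Some members of immune signalling and membrane traffic were separated by genotype without a call. *Vav1*, an exchange factor of antigen receptor signalling, was at 165, 147 and 143 CPM in transitional WT libraries against 114, 133 and 114 in knockout libraries, with a log2 fold change of -0.33 ± 0.10 (edgeR adjusted p = 0.098). *Crb3*, a polarity protein, was at 6.49, 8.28 and 6.62 CPM in follicular WT libraries against 13.5, 11.7 and 11.7, a change of 0.78 ± 0.19 (0.112). *Adgre1*, the adhesion receptor known as F4/80, was at 43.4, 78.4 and 69.9 CPM in CD40L WT libraries against 35.8, 30.9 and 37.9, a change of -0.84 ± 0.21 (0.379). The groups did not overlap in these 3 cases, chosen after their values were seen, and 26.5%, 15.5% and 13.2% of all genes had no overlap in transitional, follicular and CD40L cells. In the other states *Vav1* and *Adgre1* overlapped between genotypes, and *Crb3* overlapped in transitional cells and was higher in each knockout library after CD40L. *Rab5a*, the GTPase of early endosomes, had changes of 0.20, -0.29 and -0.11 in transitional, follicular and CD40L cells, with adjusted p of 0.523, 0.650 and 0.943. *Prr22* and *Nudt12* were tested in no state because of their low counts.

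**Figure D4:**
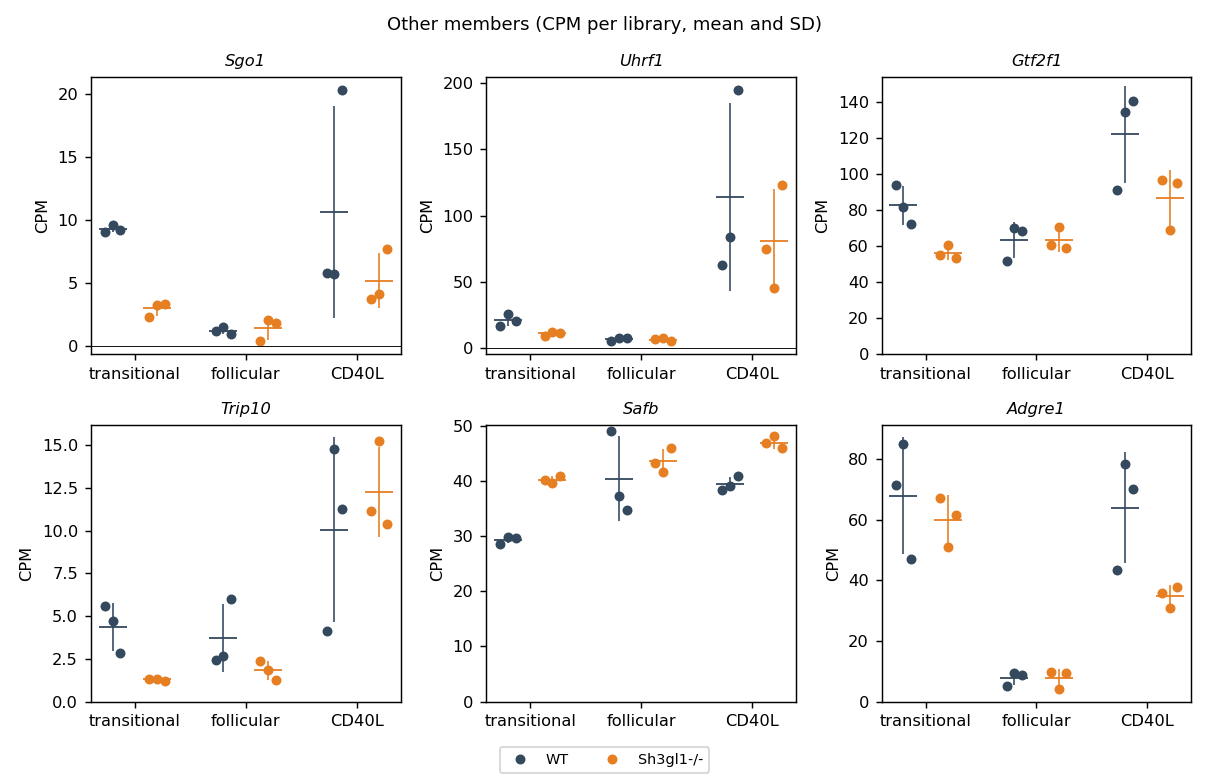
CPM of *Sgo1*, *Uhrf1*, *Gtf2f1*, *Trip10*, *Safb* and *Adgre1* (y axis) in each library, by cell state (x axis) and genotype (colour), with bars for the mean and SD of 3 libraries. In transitional cells the first 4 are lower in every knockout library and *Safb* is higher, while *Adgre1* overlaps between genotypes there.

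The calls were unevenly placed along the stretch. In transitional cells 3 of 9 members tested under 0.1 Mb passed, 3 of 31 from 0.1 to 1 Mb, 2 of 13 from 1 to 2.5 Mb and 7 of 13 from 2.5 to 5 Mb, beside 28 of 610 (4.59%) on the rest of chromosome 17. The median size of the log2 fold change was 0.37 over the 66 members and 0.22 over the rest of the chromosome. The 7 transitional calls from 2.5 to 5 Mb were all at *Satb1*, where several transcripts lie in the *Satb1* body. A subset without *Stap2*, *Mpnd* and the 10 members at *Satb1* was chosen after the values were seen. Of it 6 of 54 passed in transitional cells (11.1%, with 3.72% of all genes). In follicular cells 0 of 53 passed (with 0.838% of all genes) and after CD40L 0 of 53 (with 0.0152%). Counts of 0 in 53 are near these shares of all genes. In follicular cells 9 members tested under 0.1 Mb gave 2 calls, the 30 from 0.1 to 1 Mb and the 13 from 1 to 2.5 Mb gave 0, and the 13 from 2.5 to 5 Mb gave 2. A count of 0 in 30 is near the share of all genes called, 0.838%, and of the rest of the chromosome, 7 of 610 (1.15%). The follicular effects had a median size of 0.21 over all 65 members and 0.16 on the rest of the chromosome. After CD40L the medians were 0.26 and 0.19.

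Just beyond the lower edge, from 5 to 10 Mb below *Sh3gl1*, 2 of 53 genes passed in transitional cells (3.77%), 1 of 53 in follicular cells (1.89%) and 1 of 51 after CD40L (1.96%). The outermost members were *Tbc1d5*, 4.84 Mb below, and *Nudt12*, 2.96 Mb above and tested in no state, and the nearest expressed genes outside were *Gm7334*, 5.32 Mb below, and *Fbxl17*, 7.02 Mb above. *Mocs1*, which encodes a molybdenum cofactor synthesis enzyme 6.56 Mb below *Sh3gl1* and is no member, was the only other gene besides *Mpnd* and *Sh3gl1* called after CD40L, and is named because its value was seen. It was at 6.15 to 9.60 CPM in CD40L WT libraries and 1.04 to 1.56 in knockout libraries, a change of -2.71 ± 0.32 (edgeR adjusted p = 0.043). It was also lower in transitional (-3.24, adjusted p = 0.0039) and follicular cells (-2.93, 0.045). For the count filter, *Plin4*, *Arrdc5* and *Prr22* had 10 counts in 3 libraries and *Pspn* in 4, while *1700061G19Rik*, with 1 such library, stayed out.

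Without a threshold on p, genotype separated more neighbours than the background. In transitional cells 35 of the 73 members had all 3 knockout libraries on 1 side of all 3 WT libraries (47.9%), against 26.5% of all genes with the count filter. In follicular cells 17 did (23.3%, against 15.5%), and after CD40L 15 did (20.5%, against 13.2%). In all 3 states and in the same direction there were 7 (9.59%, against 1.09%): *Stap2*, *E430014B02Rik*, *Gm6934*, *Gm37593* and *Gm19585* higher, and *Mpnd* and *C230085N15Rik* lower. Thus 5 of the 7 lie at or near *Satb1* and 2 beside *Sh3gl1*, among them *Stap2*, which the count filter kept through its knockout libraries. After CD40L *Gm6934* rests on low counts, 5, 5 and 4 in WT libraries against 7, 12 and 15 in knockout libraries. The count was 13 without the libraries of replicate 1. There 2 libraries stand against 2, which separate more easily, and the share of all genes was not computed, so the 13 cannot be set against the 7.

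Whether the genotype effect itself differed between states was tested as an interaction. Between CD40L and follicular cells 0 of 69 members passed in edgeR (0% of all genes), with 4 at an unadjusted p under 0.05 (5.8%, against 8.83% of all genes) and 0 in DESeq2. Between transitional and follicular cells 0 of 68 passed (0.0686% of all genes), with 16 at an unadjusted p under 0.05 (23.5%, against 13.7% of all genes) and 4 in DESeq2. The share of all genes was not computed for DESeq2. The lowest edgeR adjusted p was 0.057 for *Gm37593*, whose effect was 0.92 higher in transitional cells on the log2 scale. *Satb1* had 0.66 (0.127), *Chaf1a* -2.48 (0.187) and *Sgo1* -1.86 (0.201). The larger number of calls in transitional cells is therefore not a tested difference between states for any member in edgeR.

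In WT cells the members also varied with cell state. This comparison was added after the data were seen. After CD40L 39 of 69 members passed against follicular cells (56.5%, with 49.3% of all genes). Of these 20 were higher (29%, with 23.6% of all genes) and 19 lower (27.5%, with 25.7%). These shares lie close to those of all genes, so the count is not a trait of the neighbours. *Uhrf1* (4.01), *Sgo1* (3.07), *Chaf1a* (2.79), *Ebi3* (2.88) and the costimulatory ligand *Tnfsf9* (2.65) rose on the log2 scale, and *Cd70*, another TNF ligand, was at 0 CPM in all follicular libraries and at 1.54 to 2.32 in CD40L WT libraries, a difference that the count filter had set. *Satb1* fell by 2.63, and 8 of the transcripts in or beside it fell too, by 2.25 for *5830444F18Rik* and *Gm37248* up to 3.14 for *Gm37176*. *C230085N15Rik* was among them and fell by 2.29, and *Gm19585* fell by 4.64.

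Between transitional and follicular WT cells 28 of 68 passed (41.2%, with 25.9% of all genes), 11 higher in transitional cells (14.2% of all genes) and 17 lower (11.7%). *Satb1* had a log2 difference of -0.94 there: it was at 39.7 to 46.7 CPM in transitional WT libraries and 76.1 to 92.4 in follicular WT libraries, with transitional knockout libraries between or across them at 65.3 to 87.4. Markers of the cell states moved with genotype in the transitional libraries too. The mature follicular list was at 3877 to 5032 CPM in transitional WT and 5194 to 5764 in knockout libraries. Of its 3 genes *Ighd* was called higher (log2 fold change 0.56, edgeR adjusted p = 0.030), while *Fcer2a* (-0.12) and *Cr2* (-0.36) were not called and pointed the other way. The transitional list was at 873 to 1009 CPM against 505 to 803, with *Cd24a* called lower of 4 tested (-0.87, 0.026), *Vpreb3* at -0.53 and *Rag1* at -0.82 without a call and *Cd93* at 0.22. In follicular cells *Ighd* (0.34, 0.048) was called higher, *Fcer2a* (-0.18) and *Cr2* (-0.35) were not called, *Cd24a* was called lower (-0.75, 0.0040), and *Vpreb3* (-0.37) and *Cd93* (0.71) were not called. The part of these markers in the *Satb1* change was not tested. *Sgo1* (2.90), *Chaf1a* (1.66) and *Uhrf1* (1.59) were higher in transitional than in follicular WT cells. The adhesion receptors *Adgre1* (3.12) and *Adgre4* (3.32) were higher too, and are known for macrophages. The other 5 macrophage markers summed to 457 to 550 CPM in transitional WT libraries, 111 to 140 in follicular and 18 to 23.2 in CD40L WT libraries, and their part was not tested. *Adgre1* also rose by 3.01 with CD40L, where the macrophage sum was lowest. *Adgre4* fell by 4.08 there, a difference that the count filter had set. Leaving out follicular WT replicate 1 gave 18 calls in place of 28, with no share of all genes computed for that fit.

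The counts of called members changed when single libraries were left out, and the share of all genes called was not computed for those fits. With each library left out in turn, the transitional count of 15 became 8, 4 and 9 without WT replicates 1, 2 and 3, and 5, 9 and 3 without *Sh3gl1*-/- replicates 1, 2 and 3. The follicular count of 4 became 2, 3 and 3 without the WT replicates and 2, 4 and 2 without the *Sh3gl1*-/- replicates, and the CD40L count of 1 became 2, 1 and 2, and 0, 1 and 0. Among the 20 calls, 5 remained without any single library: *Stap2* and *Mpnd* in transitional and follicular cells and *Gm37593* in transitional cells. *Stap2* had been kept by the count filter through its knockout libraries. All 20 kept their direction.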

How the data were processed

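Expression was measured by RNA-seq in 18 libraries. The authors deposited 1 table of expected counts, TPM and FPKM per gene, and the deposited FPKM was not used here. The submitters' processing notes name cutadapt 1.9.1, STAR 2.5.2a and RSEM 1.3.0 with GRCm38, the paper's methods name TopHat and Cufflinks, and the annotation release is not given in the sources used here. The labels give a stranded polyA kit, the methods another kit.

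Expected counts were rounded and tested in R 4.3.3 with edgeR 4.0.16 (TMM, filterByExpr by group, glmQLFit, glmQLFTest) per state on 6 libraries, and for interactions and WT contrasts on 12, with Benjamini-Hochberg adjustment over all genes tested. A standard error is the log2 fold change over the square root of F. The scripts were tested on simulated data. Positions come from GENCODE M21. DESeq2 1.42.0, RLE scaling, other filters, a replicate block, a fit of all 18 libraries and left-out libraries were alternatives. The macrophage list leaves out *Adgre1*, a member. The members and lists were chosen with earlier results of these data known. Named genes are the members called, the 6 nearest on each side, the highest member of each list by TPM, those without overlap in all 3 states, and those at the edges of the rule. The WT state contrasts, the uncalled transcripts at *Satb1*, *Vav1*, *Crb3*, *Adgre1*, *Adgre4*, *Rab5a* and *Mocs1* were named after their values were seen. The deviations of same-numbered libraries correlated at over 0.1 for all 3 numbers between follicular and CD40L WT libraries and between transitional and follicular knockout libraries. Differently numbered libraries were not correlated as a baseline, so no pairing is inferred, and the labels state none. The biological variation was 19.2%, 18.3% and 23.1% in transitional, follicular and CD40L cells. An exact permutation test of 3 against 3 cannot go below 0.1 and was not used.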

Additional observations from a re-analysis of the deposited data

How the results depend on the processing

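For the 37 named genes there were 98 values (1 per gene and cell state), with 1174 values under alternatives. Of these 1021 kept their direction and their side of the threshold, 84 lost the call, 28 gained one and 41 changed sign. None of the 41 was in a change that had been called. Outside the left-out libraries they were *Gtf2f1* in follicular cells, at 0.00 with DESeq2, with RLE size factors and with the replicate block, and *Tnfaip8l1* in CD40L cells, at 0.03 with the replicate block. The ranges that cross 0 with 1 library left out follow. In transitional cells the range was -0.23 to 0.01 for *Zfp959*, -0.42 to 0.14 for *Gm16712* and -0.01 to 0.19 for *Yju2*. In follicular cells the range was -0.14 to 0.68 for *Sgo1*, -0.01 to 0.99 for *Chaf1a*, -0.02 to 0.34 for *Ubxn6*, -0.02 to 0.12 for *Mydgf*, -0.08 to 0.23 for *Plin3*, -0.24 to 0.05 for *Uhrf1*, -0.28 to 0.01 for *Safb2*, -0.05 to 0.10 for *2410015M20Rik*, -0.13 to 0.08 for *Gtf2f1* and -0.05 to 0.21 for *Gpr108*. In CD40L cells the range was -0.16 to 0.03 for *Zfp119b*, -0.19 to 0.22 for *Ebi3*, -0.14 to 0.33 for *Gm16712*, -0.19 to 0.09 for *Yju2*, -0.19 to 0.36 for *Tnfaip8l1*, -0.14 to 0.10 for *Plin3*, -0.88 to 0.16 for *Uhrf1*, -0.60 to 0.16 for *Tnfsf9*, -0.05 to 0.25 for *Gpr108* and -0.07 to 0.70 for *Trip10*.

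The count of called members in transitional cells, 15, was 21 with DESeq2, 19 with all genes, 6 with the replicate block, 7 with all 18 libraries in 1 fit and 3 to 9 with 1 library left out. In follicular cells, 4 became 8 with DESeq2, 8 with all genes, 2 with all 18 libraries and 2 to 4 with 1 library left out. In CD40L cells, 1 became 4 with DESeq2, 6 with all genes, 2 with the replicate block, 4 with all 18 libraries and 0 to 2 with 1 library left out. The interaction counts of 0 became 1 with all genes between CD40L and follicular cells, and 4 with DESeq2 and 4 with all genes between transitional and follicular cells, and stayed at 0 with 1 library left out (0 to 0). The count of members without overlap in all 3 states, 7, was 6 with TPM as deposited. There *Gm37593* overlapped in follicular cells, at 9.97 to 10.49 TPM in WT and 10.08 to 13.95 in knockout libraries. The count was 7 to 13 with the same replicate number left out everywhere. Groups of 2 libraries separate more easily, and the share of all genes was not computed for them. The WT difference between transitional and follicular cells was 18 to 28 with 1 library left out. The causes of these shifts were not tested, beyond the fewer libraries of a left-out fit. The share of all genes called was not computed for any alternative fit. A fit that calls more or fewer genes everywhere can therefore not be told from a change in the neighbours alone.

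The deviations of same-numbered WT and *Sh3gl1*-/- libraries correlated at -0.082 to 0.102 over genes. Across states within a genotype the correlations were 0.026 to 0.258. They were over 0.1 for all 3 numbers between follicular and CD40L WT libraries and between transitional and follicular knockout libraries, and not for all 3 in the other group pairs. Transitional and follicular WT libraries came close, at 0.0993, 0.142 and 0.238. Without a baseline from differently numbered libraries, these values do not settle which libraries are paired. The replicate block gives both genotypes a common shift per replicate number, so it does not model mice shared between states within a genotype. With this block the interaction counts stayed at 0 and 0, and the WT counts were 39 for CD40L and 27 for transitional against follicular cells. In the comparisons of genotypes with the block the follicular count was 6 and 9 of the 15 transitional calls were lost, *Chaf1a*, *Safb* and *Gm6934* among them. Low counts limit *Stap2*, *Gm6934* and *Chaf1a*, whose counts per library were low.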
